A study of Mus musculus with 24 samples.

Results

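The genes described here encode Wnt ligands, their Frizzled receptors, and the secreted proteins that restrain or enhance them, in mouse thoracic aorta. The rule that selects them reads the gene symbol and no measured value: Wnt, Fzd (Frizzled), Sfrp (secreted Frizzled-related protein), Dkk (Dickkopf) or Rspo (R-spondin) followed by a number, with or without a or b. The rule matched 40 of 25941 genes in the count table, of which 27 reached a mean of 0.5 CPM (read counts scaled to the size of the library) over all 24 libraries and are described. They are 10 of 19 Wnt genes, 9 of 10 Fzd genes, 4 of 4 Sfrp genes, 2 of 3 Dkk genes and 2 of 4 Rspo genes. All 27 also passed the separate filter for testing, and none of the other 13 did.

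The aortas came from male wildtype C57BL/6 mice, 10 to 12 weeks old, in 3 groups of 8 libraries, labelled as biological replicates. For 3 weeks the celecoxib group was fed chow carrying 100 mg/kg/day of the drug, the rofecoxib group chow carrying 50 mg/kg/day, and the control group chow with neither. Each mouse, controls included, was given 10 ug/kg of the cytokine interleukin-1β into the abdominal cavity, and tissue was taken 4 h later at zeitgeber time 11, so no group shows an aorta without interleukin-1β. Both drugs are selective inhibitors of cyclooxygenase-2, and because their doses differed they are set side by side at these doses only.

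Wnt proteins are lipid-modified ligands that bind Frizzled receptors on nearby cells. With the co-receptors Lrp5 and Lrp6 they stabilise β-catenin, which enters the nucleus and acts with TCF/LEF factors on target genes, and through other routes they act on cell polarity and the cytoskeleton without β-catenin. Sfrp proteins carry a Frizzled-like domain and bind Wnt ligands outside the cell, several Dickkopf proteins block Lrp5 and Lrp6, and R-spondins raise the number of Frizzled receptors at the surface; in blood vessels the pathway is known for roles in endothelial barrier formation and in smooth muscle growth.

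Library totals lay between 21668798 and 21700121 counted reads. Values are CPM after TMM scaling, given as mean ± SD with n = 8, and the levels of different genes are compared only as CPM per kb of exon length. Tests are edgeR quasi-likelihood tests, two-sided, fitted to all 24 libraries, and calls were made on p-values adjusted by Benjamini and Hochberg across all 14528 tested genes, at 0.05. Smooth muscle markers were the most abundant of the marker lists: the summed level of 10 markers (Acta2, Myh11 and others) ran from 28320 to 45389 CPM. It ran from 29026 to 39412 CPM in controls, from 32249 to 45389 with celecoxib and from 28320 to 42339 with rofecoxib. With rofecoxib 1 of the 10 was called lower, and all 10 had a log2 fold change below 0 (median -0.17). Markers of other cells were present as well. The sum of 12 general adipocyte markers ran from 2129 to 5548 CPM in control libraries, from 1975 to 3717 with celecoxib and from 2189 to 6051 with rofecoxib, where 4 of the 12 were called higher. The sum of 12 endothelial markers ran from 761 to 1011 CPM in controls, from 752 to 1334 with celecoxib and from 699 to 1332 with rofecoxib, where 3 of 12 were called higher. Of 10 fibroblast markers 2 were called lower with rofecoxib, but 6 of the 10 had a log2 fold change above 0 and the list's median was 0.03; the sums ran from 8422 to 10991 CPM in controls and from 6877 to 10176 with rofecoxib. Several libraries stood apart in such sums. In rofecoxib replicate 5, 9 Schwann cell markers summed to 769 CPM and 8 neuronal markers to 590 CPM, and in control replicate 5 to 312 and 149 CPM. Skeletal muscle markers summed to 105 CPM in control replicate 3, where the next highest library was at 24.0, and erythroid markers to 454 CPM in rofecoxib replicate 4, where the next was at 246 CPM. In bulk tissue, fewer cells of a type and less RNA per cell cannot be told apart.

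Per kb of exon, the antagonists and receptors were the most abundant members. Dkk3, a Dickkopf relative that is not a classical Lrp5 or Lrp6 blocker, led at 97.2 CPM per kb over all libraries. Sfrp2 followed at 37.6, the receptor Fzd7 at 35.9, the ligand Wnt16 at 21.4, Fzd1 at 19.6, Sfrp4 at 13.5, Sfrp1 at 13.1 and Fzd2 at 12.3 CPM per kb. These 8 were the members at 10 CPM per kb or more; another 12 lay between 1 and 10, and 7 lay under 1. In the plot of levels per kb the points of Sfrp2 and Fzd7 overlapped, as did those of Sfrp4, Sfrp1 and Fzd2, so neighbours in this order were not separated beyond their spread.

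**Figure D1:**
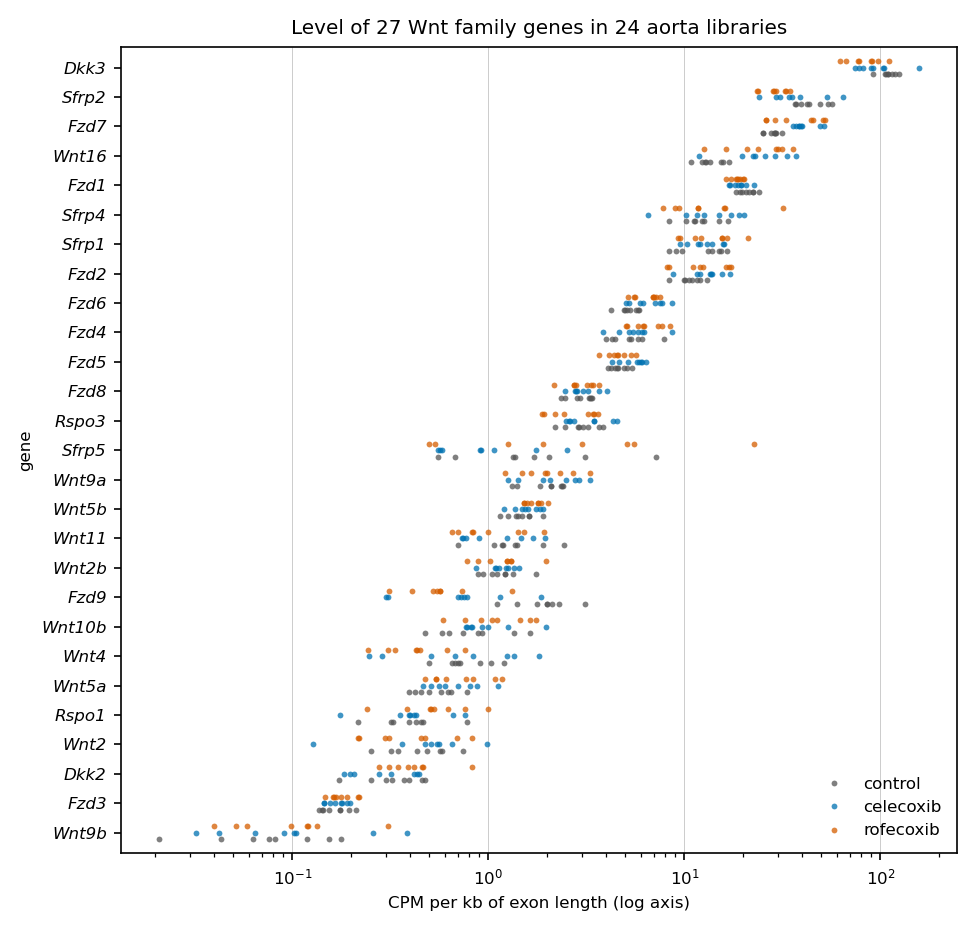
Level of the 27 described genes in each library, as CPM per kb of exon length on a log axis; each point is 1 library, coloured by diet group. Dkk3 (mean 97.2) lies at the top and Wnt9b (mean 0.114) at the bottom, and Sfrp5 has the widest spread among libraries.

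Among ligands 1 gene carried most of the signal. Wnt16 stood at 21.4 CPM per kb, and the next ligands were Wnt9a at 2.10, Wnt5b at 1.59, Wnt11 at 1.23 and Wnt2b at 1.20 CPM per kb. The lowest described ligand was Wnt9b at 0.114 CPM per kb. The threshold was set on CPM before TMM scaling, where Wnt9b lay just inside it with a mean of 0.523 and Dkk1 just outside it at 0.390. Not described for their low level were Wnt1, Wnt3, Wnt3a, Wnt6, Wnt7a, Wnt7b, Wnt8a, Wnt8b, Wnt10a, Fzd10, Dkk1, Rspo2 and Rspo4, with 1 to 203 reads each over all 24 libraries together. Among receptors Fzd7 and Fzd1 led, followed by Fzd2 at 12.3, Fzd6 at 6.12, Fzd4 at 5.86, Fzd5 at 4.95 and Fzd8 at 3.03 CPM per kb. Fzd9 at 1.14 and Fzd3 at 0.172 CPM per kb were the scarcest described receptors.

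Several Wnt genes lie side by side in the genome, and their levels in the aorta differed within these pairs. On chromosome 11 (mm9, as the table gives positions), Wnt3a ends 15.8 kb before Wnt9a; Wnt9a was at 2.10 CPM per kb and Wnt3a at 0.0028. On the same chromosome Wnt9b at 0.114 and Wnt3 at 0.0026 CPM per kb lie 23.9 kb apart. Wnt10b at 1.03 and Wnt1 at 0.148 CPM per kb lie 11.3 kb apart on chromosome 15, and Wnt6 at 0.17 and Wnt10a at 0.0415 CPM per kb lie 5.79 kb apart on chromosome 1. In each of the 4 pairs 1 neighbour was at least 4 times the other, as a description of levels with no test. The lower neighbours had few reads over all 24 libraries: 4 for Wnt3a, 4 for Wnt3, 180 for Wnt1 and 53 for Wnt10a. Wnt6, also under the threshold, had 195.

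With rofecoxib 4 of the 27 genes were called against control (14.8%), where 6.94% of all tested genes were called. In fits without 1 library the members called were 2 to 5 and all genes called 358 to 1945, the extremes being without control replicate 2 and without rofecoxib replicate 8. Wnt16 and the receptor Fzd7 rose, and the receptor Fzd9 and the antagonist Sfrp2 fell; of all tested genes 3.88% rose and 3.06% fell. The median log2 fold change of the 27 was 0.13, and that of all genes tested was 0.02. By role the calls were 1 of 10 Wnt genes, 2 of 9 Fzd genes, 1 of 4 Sfrp genes, 0 of 2 Dkk genes and 0 of 2 Rspo genes. At an unadjusted p under 0.05 the count was 9 of 27, where 28.2% of all genes tested reached it.

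With celecoxib 0 of 27 were called, where 0.0344% of all tested genes were. At an unadjusted p under 0.05 the edgeR count was 6 of 27, among 13.6% of all genes, and DESeq2 and limma voom each called Wnt16, Fzd7 and Fzd9, 3 members among 107 and 121 genes in all. The median log2 fold change of the 27 was 0.10 against 0.0014 for all genes. For Wnt16, Fzd7 and Fzd9 the edgeR adjusted p lay between 0.105 and 0.125. Both comparisons use the same 8 control libraries, so their values are given side by side and not as 2 independent observations.

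**Figure D2:**
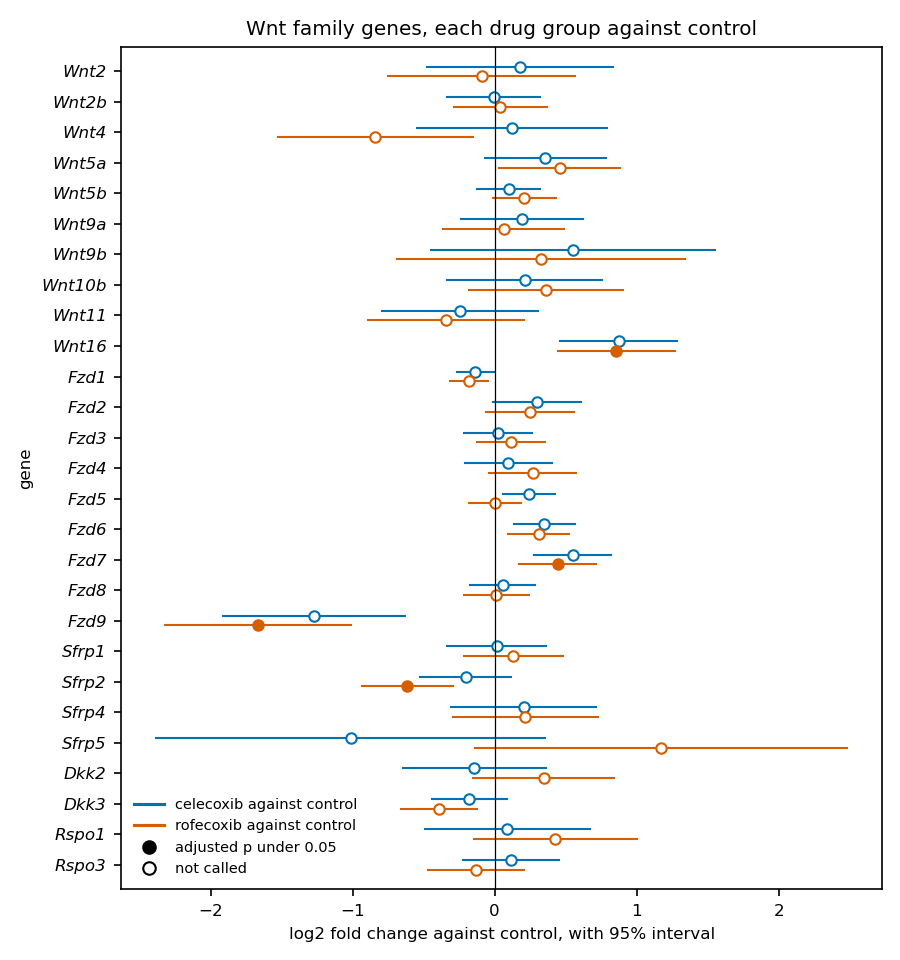
Log2 fold change of each described gene against control, with its 95% interval from the edgeR fit; blue is celecoxib, orange is rofecoxib, and filled points passed an adjusted p under 0.05. The filled points are Wnt16 (0.86), Fzd7 (0.44), Fzd9 (-1.67) and Sfrp2 (-0.61), all with rofecoxib.

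The sequences upstream of the 4 called genes are shown because these genes share a call and not a direction. Each is the 250 bases before the transcription start in RefSeq on GRCm38.p6, a build later than the mm9 of the count table, 5′ to 3′ on the strand of the gene. The windows are chr6:22287977-22288226 on the plus strand for Wnt16, chr1:59481897-59482146 on the plus strand for Fzd7, chr5:135251048-135251297 on the minus strand for Fzd9 and chr3:83766071-83766320 on the plus strand for Sfrp2. Capitals mark matches, on either strand, to CCAAT (the CCAAT box) or GGGCGG (the GC box bound by Sp1-type factors); matches to GGGCGG can overlap each other.
Wnt16: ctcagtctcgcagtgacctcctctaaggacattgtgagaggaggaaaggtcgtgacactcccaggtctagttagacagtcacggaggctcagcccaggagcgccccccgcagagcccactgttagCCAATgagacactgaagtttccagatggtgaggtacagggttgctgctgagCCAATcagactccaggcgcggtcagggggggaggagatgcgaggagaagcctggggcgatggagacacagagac
Fzd7: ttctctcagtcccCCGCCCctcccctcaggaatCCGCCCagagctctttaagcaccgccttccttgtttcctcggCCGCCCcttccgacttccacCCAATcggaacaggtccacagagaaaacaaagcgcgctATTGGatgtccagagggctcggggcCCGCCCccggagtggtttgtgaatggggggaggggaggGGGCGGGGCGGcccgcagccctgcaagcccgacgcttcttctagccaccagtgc
Fzd9: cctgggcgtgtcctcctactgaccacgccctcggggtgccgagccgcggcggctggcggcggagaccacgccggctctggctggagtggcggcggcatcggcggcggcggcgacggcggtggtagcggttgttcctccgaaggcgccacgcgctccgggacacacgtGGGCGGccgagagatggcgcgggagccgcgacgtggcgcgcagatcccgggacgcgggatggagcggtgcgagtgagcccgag
Sfrp2: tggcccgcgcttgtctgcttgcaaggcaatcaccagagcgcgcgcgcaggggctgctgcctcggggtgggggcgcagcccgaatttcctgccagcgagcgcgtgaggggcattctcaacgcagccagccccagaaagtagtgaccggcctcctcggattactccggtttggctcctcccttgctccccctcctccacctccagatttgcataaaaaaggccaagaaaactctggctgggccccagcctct

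The Wnt16 window holds 2 CCAAT matches, and the Fzd7 window 2 CCAAT and 6 GGGCGG matches. The Fzd9 window holds 1 GGGCGG match and is the richest in G and C, at 76.4% with 42 CpG dinucleotides, and the Sfrp2 window holds neither motif. Of 32851 RefSeq windows of this length 33.8% hold CCAAT and 32.7% hold GGGCGG, and the median window has 52.4% GC and 6 CpG. CTTTGA, a form of the core that TCF/LEF factors bind, and AGAACA, a glucocorticoid receptor half-site, were also searched on both strands. They are in none of the 4 windows, and 13.8% and 16.1% of all windows hold them. Other forms of the TCF/LEF core, such as CTTTGT, were not searched. The Fzd7 window holds CTTTGT on the other strand (acaaag), and the share of all windows with it was not computed. For Fzd7 the bases that follow the RefSeq start were not found in a GENCODE M21 transcript. A window was found for 18 of the 27 described genes.

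Wnt16 is a ligand known from bone and from the developing somite, where it acts largely without β-catenin. The gene (ENSMUSG00000029671, chromosome 6, 22238025 to 22250611, mm9) ran from 47.2 to 73.7 CPM in control libraries, with a median of 57.9. With rofecoxib it ran from 54.8 to 155 CPM with a median of 116, and with celecoxib from 51.7 to 161 CPM with a median of 106. With rofecoxib 6 of 8 libraries lay above every control, replicates 1 and 3 being the exceptions, and with celecoxib 7 of 8 did, replicate 2 being the exception. The control mean was 60.2 ± 8.83 CPM and the rofecoxib mean 109 ± 34.9, a 1.81-fold rise (log2 fold change 0.86, SE 0.20, 95% interval 0.44 to 1.27, edgeR adjusted p = 0.0186). The celecoxib mean was 110 ± 34.8 CPM (log2 fold change 0.87, SE 0.20, 0.46 to 1.28), at an edgeR adjusted p of 0.105. The rofecoxib call held in 24 of 24 fits that each left out 1 library. Without celecoxib replicate 2, the log2 fold change with celecoxib was 0.98 at an edgeR adjusted p of 0.0153.

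The other 9 ligands were not called in any comparison in the edgeR fit to all 24 libraries. Of these, 2 reached an unadjusted p under 0.05 in at least 1 comparison. Wnt4, a ligand with roles in kidney and gonad formation, ran from 2.08 to 5.03 CPM in controls (median 2.96), from 1.04 to 7.64 with celecoxib (median 3.16) and from 1.02 to 3.17 with rofecoxib (median 1.8). Rofecoxib libraries lay below every control in 6 of 8 cases, and the celecoxib libraries spread on both sides of the controls. The log2 fold change was -0.84 (SE 0.33) with rofecoxib, at an edgeR adjusted p of 0.104, and 0.12 (SE 0.32) with celecoxib. Wnt5a, the best known ligand of β-catenin-independent signalling, averaged 4.29 ± 1.03 CPM in controls, 5.49 ± 1.71 with celecoxib and 5.90 ± 2.05 with rofecoxib, with log2 fold changes of 0.36 (SE 0.21) and 0.46 (SE 0.21) at edgeR adjusted p of 0.445 and 0.148. Its groups overlapped widely.

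The remaining ligands did not reach an unadjusted p under 0.05 in any comparison. Mean levels in control, celecoxib and rofecoxib libraries were 6.59, 7.52 and 6.89 CPM for Wnt9a, which acts in cartilage and joints. For Wnt11, a ligand of heart and kidney development, they were 5.81, 4.91 and 4.58 CPM. Wnt2b was at 4.98, 4.96 and 5.12 CPM and Wnt5b, the close relative of Wnt5a, at 3.93, 4.20 and 4.54 CPM. None of these differences passed the test, and their 95% intervals with rofecoxib ran from -0.89 at the lowest to 0.49 at the highest on the log2 scale. Wnt10b, known as an inhibitor of fat cell formation, was at 3.06, 3.55 and 3.93 CPM, Wnt2 at 1.05, 1.19 and 0.984, and Wnt9b at 0.415, 0.608 and 0.523 CPM. These were not called either, and Wnt9b had only 2 to 39 reads in a library.

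Fzd7, the most abundant receptor, was higher than in every control in all 8 celecoxib libraries. The gene (ENSMUSG00000041075, chromosome 1, 59538789 to 59543993, mm9) ran from 114 to 142 CPM in controls, with a median of 130. With celecoxib it ran from 163 to 234 CPM with a median of 177, and with rofecoxib from 118 to 236 CPM with a median of 175. The celecoxib and control groups did not overlap, and 1 of the 27 genes and 0.234% of all tested genes had this property in that comparison. With rofecoxib 5 of 8 libraries lay above every control, and replicates 1, 2 and 3 lay within the control range. The mean was 128 ± 9.57 CPM in controls and 174 ± 49.9 with rofecoxib (log2 fold change 0.44, SE 0.13, 0.17 to 0.71, edgeR adjusted p = 0.0427). With celecoxib it was 187 ± 26.1 CPM (log2 fold change 0.55, SE 0.13, 0.28 to 0.82), at an edgeR adjusted p of 0.121. The rofecoxib call was close to the threshold: it held in 13 of 24 fits without 1 library and was lost, at adjusted p from 0.051 to 0.0892 and log2 fold changes from 0.36 to 0.46, without celecoxib replicate 6, rofecoxib replicates 4, 6, 7 or 8, or control replicates 1, 2, 5, 6, 7 or 8.

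Fzd9 showed the largest called change among the 27 genes. This receptor, known from neural precursors and bone (ENSMUSG00000049551, chromosome 5, 135724606 to 135727302, mm9), was scarce, with 16 to 152 reads in a library. It ran from 2.53 to 7.18 CPM in controls (median 4.57), from 0.69 to 4.23 with celecoxib (median 1.69) and from 0.717 to 3.02 with rofecoxib (median 1.27). With rofecoxib 7 of 8 libraries lay below every control, replicate 3 being the exception, and with celecoxib 6 of 8, replicates 1 and 2 being the exceptions. The mean fell from 4.53 ± 1.40 CPM in controls to 1.42 ± 0.703 with rofecoxib, 3.18-fold lower (log2 fold change -1.67, SE 0.32, -2.32 to -1.01, edgeR adjusted p = 0.00627). With celecoxib the mean was 1.88 ± 1.14 CPM (log2 fold change -1.27, SE 0.31, -1.91 to -0.63), at an edgeR adjusted p of 0.125. The rofecoxib call held in 24 of 24 fits without 1 library, and without celecoxib replicate 2 the celecoxib value was -1.55 at an edgeR adjusted p of 0.019.

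**Figure D3:**
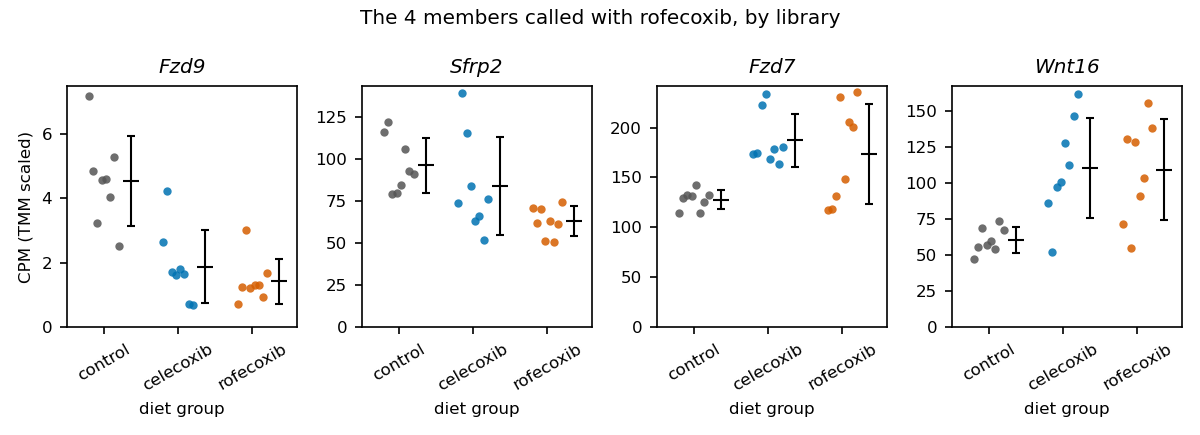
CPM of Fzd9, Sfrp2, Fzd7 and Wnt16 in each library; points are libraries, the black bars are the group mean and SD over 8 libraries, and each axis starts at 0. All 8 rofecoxib points of Sfrp2 lie below the lowest control (79.2), and all 8 celecoxib points of Fzd7 lie above the highest control (142).

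The other 7 Frizzled genes were not called in the edgeR fit to all 24 libraries. Fzd6, a receptor of planar cell polarity, averaged 25.2 ± 2.66 CPM in controls, 32.1 ± 6.16 with celecoxib and 31.2 ± 4.28 with rofecoxib, and 6 celecoxib and 5 rofecoxib libraries lay above every control. Its log2 fold changes were 0.35 (SE 0.10) and 0.31 (SE 0.10) at edgeR adjusted p of 0.19 and 0.0656. Fzd1 varied little within groups, with 88.3 ± 8.08, 80.3 ± 8.09 and 77.9 ± 5.51 CPM in the same order. Its log2 fold changes were -0.14 (SE 0.06) and -0.18 (SE 0.06) at edgeR adjusted p of 0.347 and 0.0742. Without rofecoxib replicate 8 or control replicate 4 the rofecoxib value passed at 0.0432 and 0.037. DESeq2 and limma voom also called Fzd1 lower with rofecoxib. Fzd5 was at 32.2 ± 3.19 CPM in controls, 38.1 ± 5.20 with celecoxib and 32.3 ± 4.49 with rofecoxib, and 5 celecoxib libraries lay above every control where 1 rofecoxib library did. Its log2 fold changes were 0.24 (SE 0.09) with celecoxib, at an edgeR adjusted p of 0.257, and 0.0012 (SE 0.09) with rofecoxib.

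Fzd4, the endothelial receptor of norrin, averaged 36.1, 38.6 and 43.4 CPM in control, celecoxib and rofecoxib libraries, and its 95% interval with rofecoxib ran from -0.04 to 0.58 on the log2 scale. Fzd2 averaged 39.6, 48.6 and 46.9 CPM, Fzd8 17.8, 18.5 and 17.9, and Fzd3, which guides axons, 2.13, 2.17 and 2.31 CPM. Endothelial markers Tek, Kdr and Egfl7 were the 3 called higher with rofecoxib, and their part in the Fzd4 values was not tested.

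Among the secreted antagonists Sfrp2 fell with rofecoxib. Sfrp2 binds Wnt ligands and is made largely by fibroblast-like cells (ENSMUSG00000027996, chromosome 3, 83570041 to 83578440, mm9). It ran from 79.2 to 122 CPM in controls (median 91.9), from 50.8 to 74.7 with rofecoxib (median 62.6) and from 51.7 to 139 with celecoxib (median 75.1). All 8 rofecoxib libraries lay below every control, and with celecoxib 5 of 8 did. The rofecoxib and control groups did not overlap, in either direction, for 1 of the 27 genes and 0.785% of all tested genes. The mean was 96.4 ± 16.4 CPM in controls and 63.0 ± 8.85 with rofecoxib, 1.53-fold lower (log2 fold change -0.61, SE 0.16, -0.94 to -0.29, edgeR adjusted p = 0.0242). With celecoxib it was 83.8 ± 29.2 CPM (log2 fold change -0.20, SE 0.16, -0.52 to 0.12), at an edgeR adjusted p of 0.57. The rofecoxib call held in 22 of 24 fits without 1 library; without control replicate 1 or 2 the values were -0.57 and -0.56 at edgeR adjusted p of 0.0516 and 0.0566. The fibroblast markers went both ways: Col1a1 and Col1a2 were called lower and 6 of 10 markers lay above 0 with rofecoxib.

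Sfrp5 had the largest relative spread of the 27 genes within the control and the rofecoxib group. It ran from 1.06 to 13.6 CPM in controls (median 2.93), from 1.05 to 4.78 with celecoxib (median 1.73) and from 0.945 to 43.1 with rofecoxib (median 4.66). The highest control was replicate 5 at 13.6 CPM and the highest rofecoxib library was replicate 5 at 43.1 CPM. In these libraries the neuronal markers summed to 149 and 590 CPM, where the control and rofecoxib medians were 13.9 and 12.3, and the Schwann cell markers to 312 and 769 CPM, where the medians were 141 and 204. The log2 fold change was 1.17 (SE 0.64) with rofecoxib, at an edgeR adjusted p of 0.224, and -1.01 (SE 0.66) with celecoxib, at 0.505. Without control replicate 5 the celecoxib value was -0.47, and over all fits without 1 library it ran from -1.30 to -0.47. Without rofecoxib replicate 5 the rofecoxib value was 0.18 (SE 0.53).

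**Figure D4:**
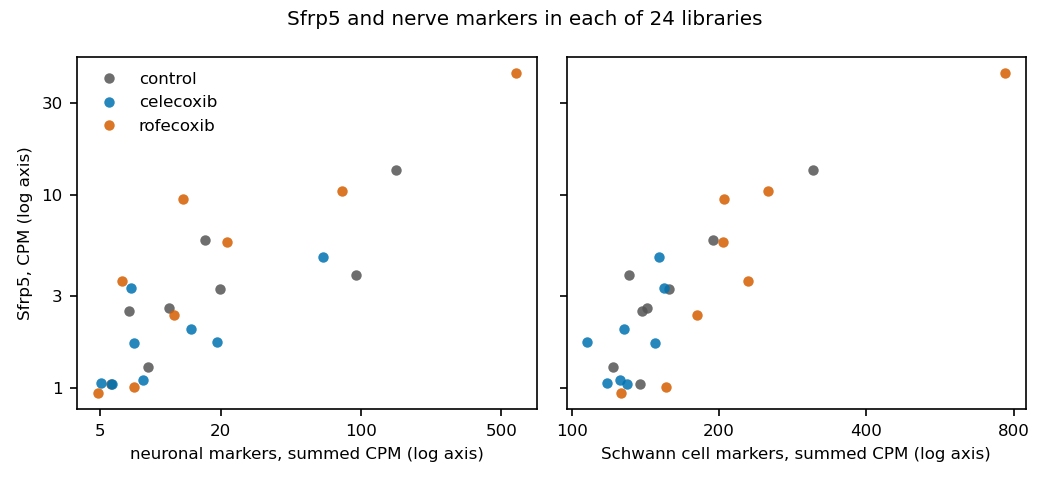
Sfrp5 against the summed CPM of 8 neuronal markers (left) and of 9 Schwann cell markers (right), all axes log; each point is 1 library, coloured by diet group. The highest Sfrp5 point, rofecoxib replicate 5 (43.1 CPM), also has the highest sums (590 and 769 CPM).

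Sfrp1 and Sfrp4, the other members of the family, did not pass the test. Sfrp1 averaged 55.2 ± 13.7, 55.8 ± 10.2 and 60.5 ± 17.6 CPM in control, celecoxib and rofecoxib libraries. Sfrp4, a regulator of phosphate and bone, averaged 51.0 ± 11, 58.8 ± 19.6 and 59.2 ± 32.4 CPM. Dkk3, the member with the highest level, ran from 308 to 416 CPM in controls (median 368), from 250.4 to 529 with celecoxib (median 305) and from 210 to 370.1 with rofecoxib (median 281). Below every control lay 4 celecoxib and 6 rofecoxib libraries, and celecoxib replicate 2 lay above every control. Its log2 fold change was -0.39 (SE 0.13) with rofecoxib, at an edgeR adjusted p of 0.0614, and -0.18 (SE 0.13) with celecoxib. Without celecoxib replicate 2, which contributes to the shared spread, the rofecoxib value was -0.40 at an edgeR adjusted p of 0.0228. Without rofecoxib replicate 8 or control replicate 3 it passed at 0.024 and 0.0491. DESeq2, limma voom and the fit of only the 2 groups compared also called Dkk3 lower with rofecoxib. Dkk2 averaged 1.27 ± 0.379, 1.15 ± 0.407 and 1.61 ± 0.626 CPM.

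Rspo3, a regulator of vessel remodelling, averaged 9.35 ± 1.74 CPM in controls, 10.1 ± 2.48 with celecoxib and 8.55 ± 2.28 with rofecoxib. Rspo1 averaged 0.818 ± 0.322, 0.868 ± 0.353 and 1.10 ± 0.446 CPM. Neither was called, and the 95% intervals with rofecoxib were -0.47 to 0.21 for Rspo3 and -0.15 to 1 for Rspo1 on the log2 scale.

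Set against each other, celecoxib and rofecoxib libraries differed in 0 of 27 genes by edgeR, where 4.89% of all tested genes were called. That share, 710 genes, was not stable: 0 genes were called without celecoxib replicate 2 or 3 or rofecoxib replicate 2, 3 or 7, and with only the 2 groups fitted, and 1997 without rofecoxib replicate 8. Markers of other cells differed between the drugs too: called lower with celecoxib than with rofecoxib were 7 of 12 adipocyte, 6 of 7 neutrophil, 5 of 9 Schwann cell, 4 of 10 brown adipocyte and 4 of 10 macrophage markers, and 8 of 8 neuronal markers lay below 0 with 0 called. Of 10 smooth muscle markers 9 had a log2 fold change above 0 in this comparison, with 0 called. The part of these marker levels in the differences below was not tested beyond the covariate fits. Among the members 4 of 27 reached an unadjusted p under 0.05, where 23% of all genes did, and DESeq2 called 2, Wnt4 and Sfrp5, among 1423 genes in all, while limma voom called 0 members among 862 genes. In this comparison 0 of 27 genes, and 0.0551% of all tested genes, had groups that did not overlap. All 27 differences were adjusted together with all other genes. For Wnt16 the difference, celecoxib minus rofecoxib, was 0.02 with a 95% interval of -0.39 to 0.42 on the log2 scale, and for Fzd7 it was 0.11 (-0.16 to 0.38). For Fzd9 it was 0.40 (-0.27 to 1.06) and for Sfrp2 0.41 (0.09 to 0.73, edgeR adjusted p = 0.111). Thus the Sfrp2 call with rofecoxib is not shown to differ from celecoxib. The widest differences were those of Sfrp5, -2.19 (-3.56 to -0.81) at an edgeR adjusted p of 0.0547, and Wnt4, 0.96 (0.28 to 1.65) at 0.0793; Fzd5 was at 0.24 (0.06 to 0.42) at 0.103. Some of these differences were called in fits without 1 library: Sfrp5 without celecoxib replicate 1 or rofecoxib replicate 6 or 8 (edgeR adjusted p 0.0268 to 0.0422), Wnt4 without celecoxib replicate 7 or 8 or rofecoxib replicate 8 (0.0444 to 0.0476), Sfrp2 without celecoxib replicate 7 (0.0496) and Fzd5 without rofecoxib replicate 8 (0.0451). Without rofecoxib replicate 5 the Sfrp5 difference was -1.20 at an edgeR adjusted p of 0.217. With the Schwann cell and neuronal levels of each library as covariates it was 0.36 (SE 0.29), of the opposite sign. That fit was chosen after seeing the data, and those marker levels themselves differed between the drug groups. With the same covariates the Wnt4 difference was 0.80 (SE 0.50).

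**Figure D5:**
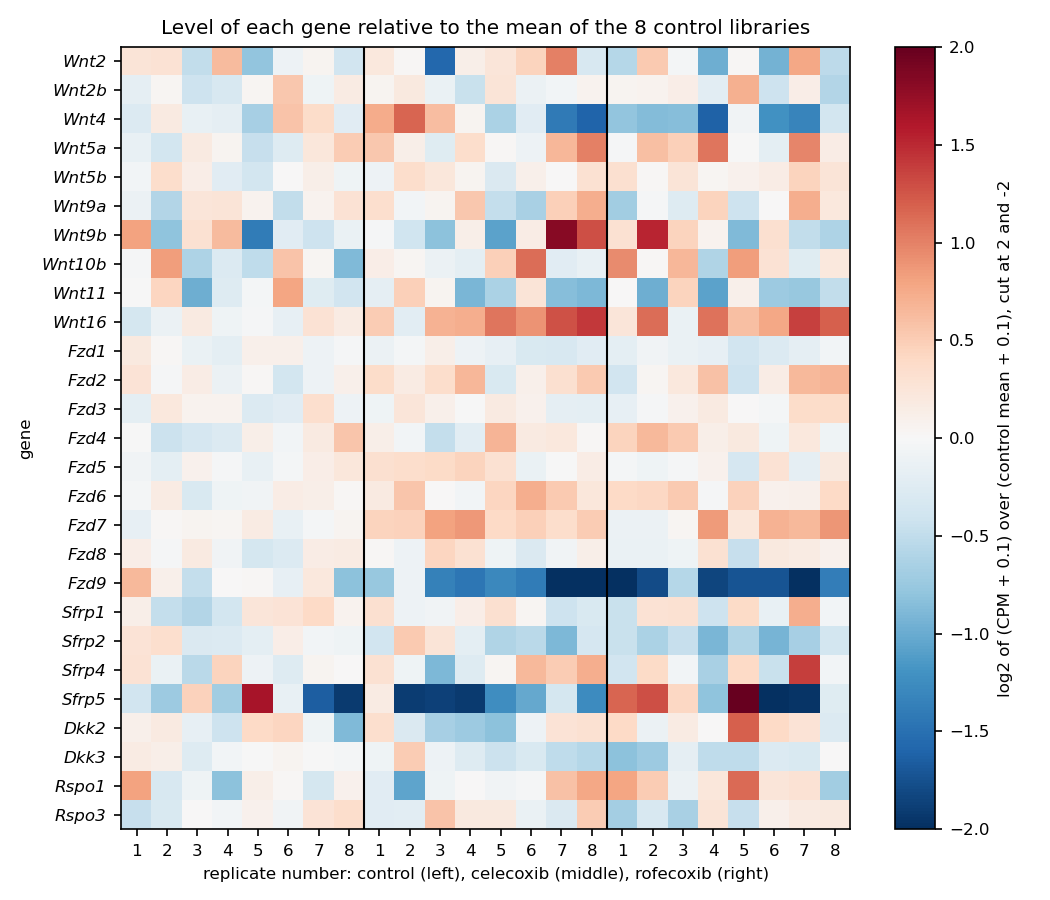
Log2 of CPM plus 0.1 over the control mean plus 0.1 for each described gene (rows, by family) and library (columns, by group and replicate number), with colours limited to -2 and 2. Wnt16 is red and Fzd9 blue in most drug libraries, celecoxib replicate 2 and rofecoxib replicate 3 are the palest of their groups in the Fzd9 row, and the Sfrp5 row is uneven within every group.

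Single libraries departed from their group in several members at once. Celecoxib replicate 2 was the celecoxib library with the lowest Wnt16 (51.7 CPM) and the highest Fzd9 (4.23), Sfrp2 (139), Wnt4 (7.64) and Dkk3 (529 CPM). Its smooth muscle marker sum, 45389 CPM, was the highest of the 24 libraries. Rofecoxib replicate 8 had the highest such sum of its group (42339 CPM) and the highest Sfrp2 (74.7) and Dkk3 (370.1), but not the lowest Wnt16 (138 CPM). The part of smooth muscle levels in these values was not tested beyond the covariate fits. Rofecoxib replicate 3 had the lowest Wnt16 (54.8) and the highest Fzd9 (3.02 CPM) of its group. Rofecoxib replicate 5, the library high in nerve markers, did not decide the 4 calls: without it the log2 fold changes were 0.89 for Wnt16, 0.47 for Fzd7, -1.65 for Fzd9 and -0.61 for Sfrp2, at edgeR adjusted p of 0.0204, 0.0382, 0.0111 and 0.0318. Of the other libraries that stood apart in nerve, skeletal muscle or erythroid marker sums, 5 members were called with rofecoxib without control replicate 3, 3 without control replicate 5 and 3 without rofecoxib replicate 4. Without celecoxib replicate 2 the count was 5, and without rofecoxib replicate 8 it was 5.

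The calls depended on how tissue composition was treated. With the adipocyte and skeletal muscle levels of each library as covariates 0 of 27 genes were called with rofecoxib, and 29 of all genes were. The log2 fold changes in that fit were 0.93 for Wnt16, 0.55 for Fzd7, -1.42 for Fzd9 and -0.46 for Sfrp2. With endothelial and smooth muscle levels as covariates 1 member, Fzd7 at 0.62, was called among 26 genes in all, and the values were 0.77 for Wnt16, -1.20 for Fzd9 and -0.34 for Sfrp2. With Schwann cell and neuronal levels as covariates, a fit chosen after seeing the data, 0 members and 40 genes in all were called, with 0.79 for Wnt16, 0.41 for Fzd7, -1.37 for Fzd9 and -0.58 for Sfrp2. Each of the 4 genes kept its direction in these 3 fits. How far the marker levels account for the differences was not tested beyond these fits.

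Other genes of the pathway, 90 in 8 lists, were mostly not called. With celecoxib 0 genes of any list were called, and between the drugs 0 were. With rofecoxib, where 6.94% of all tested genes were called (3.88% higher, 3.06% lower) and their median log2 fold change was 0.02, the Wnt co-receptors had 0 of 8 called, the R-spondin receptors and their ligases 0 of 3, the genes of Wnt secretion and deacylation 0 of 4, and the β-catenin destruction complex with Dishevelled 0 of 12. Of 11 other secreted antagonists 1 fell, Wif1, which binds Wnt ligands directly. It averaged 31.1 ± 4.52 CPM in controls and 20.2 ± 7.39 with rofecoxib (log2 fold change -0.62, SE 0.18, edgeR adjusted p = 0.0409), a call that was lost in 12 of 24 fits without 1 library, at adjusted p up to 0.0801 (rofecoxib replicates 1, 2, 3, 5, 6 and 7, and control replicates 1, 2, 5, 6, 7 and 8). Frzb, another Frizzled-like antagonist, was at 42.7, 46.4 and 44.0 CPM in control, celecoxib and rofecoxib libraries.

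Downstream, 2 of 13 β-catenin and TCF genes fell with rofecoxib and 0 rose, with a list median of -0.14. They were Tle1, a TCF co-repressor (log2 fold change -0.32, SE 0.08, edgeR adjusted p = 0.0232), and Ctnnb1, which encodes β-catenin (-0.20, SE 0.06, adjusted p = 0.0497); the Ctnnb1 call held in 7 of 24 fits without 1 library (those leaving out celecoxib 2, 5 or 8, rofecoxib 3 or 8, or control 3 or 4) and was lost in the other 17, at adjusted p up to 0.0944. Of 13 tested target genes 1 rose with rofecoxib, Wisp2 (Ccn5), a matricellular growth inhibitor of smooth muscle. Wisp2 averaged 155 ± 28.1 CPM in controls, 229 ± 36.2 with rofecoxib (log2 fold change 0.56, SE 0.12, edgeR adjusted p = 0.00972) and 232 ± 41.3 with celecoxib (0.58, SE 0.12, adjusted p = 0.0795, or 0.0484 without rofecoxib replicate 8). The target list had a median of 0.16, and Axin2, the most general β-catenin target, was not called at 4.23, 5.13 and 5.15 CPM in control, celecoxib and rofecoxib libraries (log2 fold changes 0.28 and 0.28, SE 0.13 each, edgeR adjusted p = 0.339 and 0.148). Of 22 genes of planar polarity and β-catenin-independent signalling 1 fell, the kinase gene Rock1 (-0.51, SE 0.13, adjusted p = 0.0229). The shares called, 7.69% of the targets and 4.55% of the polarity genes, lay near that of all genes, and those of the other antagonists (9.09%) and of the β-catenin and TCF genes (15.4%) rest on 1 and 2 genes.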

How the data were processed

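Poly(A)-selected RNA of 24 mouse thoracic aortas was sequenced, and the sample labels gave group and replicate number. The file is 1 table of whole-number read counts for each gene, used as the authors deposited it. The submitters' processing notes name CASAVA 1.8.1, STAR 2.5.1b and mm9. The counter, its annotation and its use of strand are not given in the sources used here, and a gene that overlaps another or lies antisense to it may share its reads. Library totals differed by 0.145%, closer than sequencing usually leaves them, so counts may have been subsampled or rescaled before deposit; no source used here says so, and the number of reads behind each count is then unknown.

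Counts were analysed in R 4.3.3 with edgeR 4.0.16, scaled by TMM, filtered by filterByExpr and fitted by quasi-likelihood with a mean for each group over 24 libraries; the common biological coefficient of variation was 19.6%. P-values weigh each group difference against the spread between these libraries. The scripts were tested on simulated counts with known changes, 50 genes at each size. At 1.25-fold 28% were recovered in the celecoxib comparison and 26% in the rofecoxib comparison, at 1.5-fold 62% and 76%, and at 2-fold 84% in each. The simulation held no differences in tissue composition between libraries, so it does not test the calls against these. It also planted far more changed genes than the 5 called with celecoxib, which eases the adjusted threshold. These shares may therefore overstate the recovery in the celecoxib comparison. CPM per kb used the union of exons in GENCODE M21, matched by gene ID for 40 of 40 genes, which may differ from the authors' annotation. Promoters came from RefSeq. The alternatives changed the scaling (RLE, or library size alone), the filter (none, or 1 CPM on average), the tool (DESeq2 1.42.0, or voom in limma 3.58.1), the libraries fitted (each pair of groups, replicates 1 to 4 or 5 to 8, each library left out) and the model (a replicate block, a term for replicate sets, cell type covariates). The protocol mentions library construction days without tying them to samples, so whether the replicate sets are batches is not known.

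Named were all members at 0.5 CPM or more; fold changes were printed for called members and those at an unadjusted p under 0.05, with intervals for some others, up to 4 called genes per pathway list, and Axin2, Ctnnb1, Frzb and Wif1. The members and lists were chosen with earlier results of these data known. The neighbouring Wnt pairs and the values of single libraries were picked after their values were seen. No 2 libraries of a group agreed within sampling noise. Of 11 marker lists the counts called with rofecoxib were: adipocyte 4 of 12, endothelial 3 of 12, fibroblast 2 of 10, smooth muscle 1 of 10 (lower), brown adipocyte 1 of 10, macrophage 1 of 10, Schwann cell 1 of 9, and skeletal muscle, neutrophil, erythroid and neuronal 0 of 5, 7, 5 and 8 tested. Of all tested genes 6.94% were called with rofecoxib. All tested endothelial, brown adipocyte, macrophage, Schwann cell, neutrophil, erythroid and neuronal markers had a log2 fold change above 0. The list medians were, in that order, 0.31, 0.88, 0.36, 0.99, 0.65, 0.30 and 1.29. Adipocyte markers lay above 0 in 11 of 12 cases (median 0.78). All 5 skeletal muscle and all 10 smooth muscle markers lay below 0. The neuronal and Schwann cell values include rofecoxib replicate 5. In the skeletal muscle list 5 markers lay under 0.5 CPM: Myh1, Myh2, Tnni2, Pvalb and Myh7.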

Additional observations from a re-analysis of the deposited data

Results flagged for a closer look

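Of 81 sets of 8 libraries (27 genes in 3 groups), 2 held a library far from the other 7 on the scale of log2(CPM + 0.1), by a gap to its neighbour that is a larger share of the range than Dixon's 95% critical value allows; chance flags about 1 in 20. Dkk2 was at 3.04 CPM in rofecoxib replicate 5, where the other 7 rofecoxib libraries ran from 1.03 to 1.71. Dkk3 was at 529 CPM in celecoxib replicate 2, where the other 7 celecoxib libraries ran from 250.4 to 349. Without celecoxib replicate 2 the log2 fold change of Dkk3 with celecoxib was -0.31 (SE 0.11) at an edgeR adjusted p of 0.181. On the CPM scale 10 sets passed the same limit, among them these 2 and Sfrp5 in rofecoxib replicate 5 (43.1 CPM) and control replicate 5 (13.6), Sfrp4 in rofecoxib replicate 7 (133) and Fzd9 in rofecoxib replicate 3 (3.02 CPM). The others were Wnt10b in celecoxib replicate 6 (6.73), Wnt2b in rofecoxib replicate 5 (8.23), Wnt9b in rofecoxib replicate 2 (1.38) and Rspo1 in control replicate 1 (1.51 CPM).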

How the results depend on the processing

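With celecoxib, where edgeR called 0 members, 3 were called by DESeq2, 3 by limma voom, 2 with only the 2 groups compared, 3 with a term for replicates 1 to 4 against 5 to 8, and, fitted separately, 1 in replicates 1 to 4 and 3 in replicates 5 to 8; single libraries left out gave 0 to 2. All genes called in those 6 fits numbered 107, 121, 45, 174, 9 and 313, and 0 to 34 without 1 library. With rofecoxib, where edgeR called 4, the count was 0 with adipocyte and skeletal muscle covariates, 1 with endothelial and smooth muscle covariates, 0 with Schwann cell and neuronal covariates, the last chosen after seeing the data, and 0 in a fit of replicates 1 to 4; leaving out 1 library gave 2 to 5, with 2 without control replicate 1 or 2. Other settings gave 3 to 6, among them 3 with no filter on low counts, where Fzd7 was not called. DESeq2 and limma voom each called 6, which were the 4 of edgeR and, lower, Fzd1 and Dkk3. The fit of only the 2 groups compared called 6, Wnt16, Wnt4, Fzd6, Fzd9, Sfrp2 and Dkk3, without Fzd7. Between the drugs, where edgeR called 0, DESeq2 called 2 (1423 in all) and replicates 1 to 4 alone gave 6 (2073 in all), and leaving out 1 library gave 0 to 3. Over all genes, with rofecoxib 1008 were called by edgeR, 1796 by DESeq2, 2448 by voom, 1735 with the term for replicate sets, 557 with no filter, and 42 and 401 in fits of replicates 1 to 4 and of 5 to 8. The cause was not tested. The lowest described member, Wnt9b, had a 95% interval of -0.69 to 1.34 with rofecoxib.

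The difference between the drugs reversed for Wnt4 in replicates 5 to 8 alone (-0.23), for Sfrp5 with Schwann cell and neuronal covariates (0.36), and for Wif1 with endothelial and smooth muscle covariates (-0.034) and with those later replicates only (-0.00599). In the same separate fits of replicates 1 to 4 and of 5 to 8, the rofecoxib values were 0.76 and 0.93 for Wnt16, 0.24 and 0.61 for Fzd7, -1.68 and -1.66 for Fzd9, and -0.64 and -0.59 for Sfrp2.

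Whether replicate numbers pair the samples is not given by the labels and was not settled. Same-numbered libraries correlated by more than 0.1 in 12 of 24 pairs (-0.30 to 0.56, median 0.11), and 7 of 24 libraries correlated best with their own number. How many would do so without pairing was not computed. With the replicate block 0 members were called with celecoxib, 4 with rofecoxib and 0 between the drugs; over all genes the block gave 27 calls with celecoxib in place of 5, 1187 with rofecoxib in place of 1008, and 0 between the drugs in place of 710.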
